A study of Mus musculus with 16 samples.

Results

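The Flrt, Unc5 and latrophilin genes encode 3 families of cell-surface proteins that bind each other at contacts between neurons. The 10 genes described here (*Flrt1*, *Flrt2*, *Flrt3*, *Unc5a*, *Unc5b*, *Unc5c*, *Unc5d*, *Adgrl1*, *Adgrl2* and *Adgrl3*) were chosen by their gene symbols from the 32285 genes of the RNA matrices. The families themselves were selected on earlier results of the same libraries, in which *Flrt2* had been picked out after its values were seen. Differences of *Flrt2* in RNA are therefore given with their standard error (SE) as a description, with no p-value, and *Flrt2* is left out of every count of RNA calls. Tests were counted over all genes, and no p-value was taken over the 10 genes alone.

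The nuclei came from the microdissected dentate gyrus (DG) of 4 wild-type mice (WT, labelled VV) and 4 mutant mice (labelled LL). The mutants were homozygous for the V321L missense mutation in *Nrg1*. Each genotype had 2 females (F1, F2) and 2 males (M1, M2). *Nrg1* encodes neuregulin, a transmembrane growth factor that also signals back to the nucleus, and V321L lies in the stretch of the protein needed for that release. Both genotypes came from frozen tissue, and RNA and accessible chromatin were read from the same nuclei, with 1 library pair per mouse. The age and strain of these 8 mice were not given in the sources used here. Nuclei were placed in cell classes by their UMIs (unique molecules) of fixed marker genes, none of which was among the 10. The CA3-type, CA1-type and GABAergic levels came instead from clusters of nuclei named by such markers. The CA1-type name joins clusters of 422 and 325 nuclei, in which 3 and 6 of the 6 CA1-type markers were raised. Of their nuclei 391 entered no class by the marker gate. The GABAergic cluster held 483 nuclei, of which 322 entered no class by the gate and 73 were gated as GABAergic. Another 39 were gated as granule cells and 37 as other excitatory neurons, and stand in the sums of those classes as well. The clusters were built on the most variable genes, from which the 10 were not excluded. Levels in these clusters may therefore depend on the members' own UMIs. Levels are given as CPM, the UMIs of a gene per 1000000 UMIs of the class sum of a mouse, always in the order F1, F2, M1, M2, and are compared within a gene and never between genes. Granule cells (GCs), the principal neurons of the DG, were also divided by *Sorcs3* and *Penk*, which the study used as markers of semilunar granule cells, a rare GC subtype with several primary dendrites.

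The libraries of the genotypes stood apart. Of the 16360 nuclei kept, the GC gate held 1305, 2444, 1308 and 1550 in WT and 1155, 1204, 824 and 893 in V321L mice. The libraries shared 158 barcode sequences, at most 12 between any pair. Total RNA UMIs were 4326426 to 14624265 per WT and 15505354 to 23582057 per V321L library, and the median GC held 1103.5 to 2018 UMIs in WT and 3253 to 4691 in V321L mice. Transcripts of ribosomal proteins made up 0.0989% to 0.166% of GC UMIs in WT and 0.867% to 1.79% in V321L mice, *Malat1* 0.765% to 1.02% and 3.56% to 4.89%, and free RNA an estimated 12.5% to 19.9% and 9.95% to 18.6%. Genotype and library quality cannot be told apart in these data, which applies to every difference between genotypes below. The 8 GC markers were detected in the GCs of every mouse. Fewer nuclei of a kind and less RNA per nucleus also cannot be told apart in class sums.

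As background, the FLRT proteins are leucine-rich repeat proteins that act both as adhesion molecules and, when shed, as repulsive guidance cues. UNC5 proteins are receptors for netrins, and bind the FLRT ectodomain; their signal is classically repulsive and, without ligand, can promote cell death. Latrophilins are adhesion G protein-coupled receptors of the presynaptic and postsynaptic membrane that bind FLRTs and teneurins, and in the hippocampus they are known for placing excitatory synapses on particular stretches of the dendrite.

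In RefSeq on GRCm38.p6, the assembly behind mm10, the genes differed widely in length. The *Flrt* genes lay at chr19:7087464-7166183 (*Flrt1*), chr12:95692006-95785215 (*Flrt2*, 93.2 kb) and chr2:140658198-140671476 (*Flrt3*, 13.3 kb, the shortest of the 10). The receptors *Unc5a* (chr13:54945151-55006018, 60.9 kb) and *Unc5b* (chr10:60762594-60831581, 69.0 kb) were far shorter than *Unc5c* (chr3:141465564-141834924, 369 kb) and *Unc5d* (chr8:28646717-29219671, 573 kb). Among the latrophilins, *Adgrl1* spanned 41.9 kb (chr8:83900098-83941954), *Adgrl2* 174 kb (chr3:148815586-148989096) and *Adgrl3* 809 kb (chr5:81019085-81827825).

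Chromatin peaks lay within 1000 bases of the start sites of 8 of the genes in every library, and 4 start sites are printed because accessibility there differed between cell classes, in opposite directions for *Unc5a* and *Unc5b*. Each is the RefSeq sequence from 250 bases before to 50 bases after the start, 5′ to 3′ on the strand of the gene. Capitals mark the GC box (GGGCGG, or CCGCCC on the other strand) and the core of the cAMP response element (TGACG, or CGTCA on the other strand). *Unc5a* lies on the plus strand at chr13:54949161-54949460, *Unc5b* on the minus strand at chr10:60831532-60831831, *Unc5c* on the plus strand at chr3:141465314-141465613 and *Flrt3* on the minus strand at chr2:140671427-140671726.
Unc5a: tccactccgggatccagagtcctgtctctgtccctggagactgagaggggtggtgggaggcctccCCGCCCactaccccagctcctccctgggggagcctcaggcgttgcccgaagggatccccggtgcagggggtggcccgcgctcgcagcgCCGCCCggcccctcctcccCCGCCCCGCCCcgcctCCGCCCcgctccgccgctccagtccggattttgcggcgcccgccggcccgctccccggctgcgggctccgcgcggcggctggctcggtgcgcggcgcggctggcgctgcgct
Unc5b: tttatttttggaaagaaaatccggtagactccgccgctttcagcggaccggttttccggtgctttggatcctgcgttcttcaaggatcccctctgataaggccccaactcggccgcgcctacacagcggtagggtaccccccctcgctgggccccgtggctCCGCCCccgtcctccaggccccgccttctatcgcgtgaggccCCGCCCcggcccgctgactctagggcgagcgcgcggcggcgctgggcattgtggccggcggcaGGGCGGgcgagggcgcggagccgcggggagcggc
Unc5c: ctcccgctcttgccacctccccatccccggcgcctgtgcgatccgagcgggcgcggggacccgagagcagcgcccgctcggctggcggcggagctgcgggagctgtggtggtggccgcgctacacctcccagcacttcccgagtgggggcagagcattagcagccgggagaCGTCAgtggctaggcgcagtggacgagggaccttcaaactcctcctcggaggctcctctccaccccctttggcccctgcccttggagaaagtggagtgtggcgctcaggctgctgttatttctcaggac
Flrt3: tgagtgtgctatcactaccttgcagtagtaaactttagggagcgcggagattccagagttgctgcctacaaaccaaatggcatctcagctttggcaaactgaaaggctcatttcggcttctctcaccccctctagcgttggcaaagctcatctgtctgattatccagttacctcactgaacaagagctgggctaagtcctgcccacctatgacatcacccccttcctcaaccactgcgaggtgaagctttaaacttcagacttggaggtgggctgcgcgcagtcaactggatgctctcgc
*Unc5a* held 5 GC boxes, of which a neighbouring pair overlapped, and *Unc5b* held 3, whereas *Unc5c* held only the cAMP response element core and *Flrt3* neither. Of 32851 RefSeq start sites of this length, 35.7% held a GC box and 20.8% the cAMP response element core. The G and C content was 78.3% for *Unc5a*, 69.7% for *Unc5b*, 68.3% for *Unc5c* and 51.3% for *Flrt3*, beside a median of 52.7% over all start sites. These matches describe the letters of the windows and are not binding sites that were measured.

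**Figure D1:**
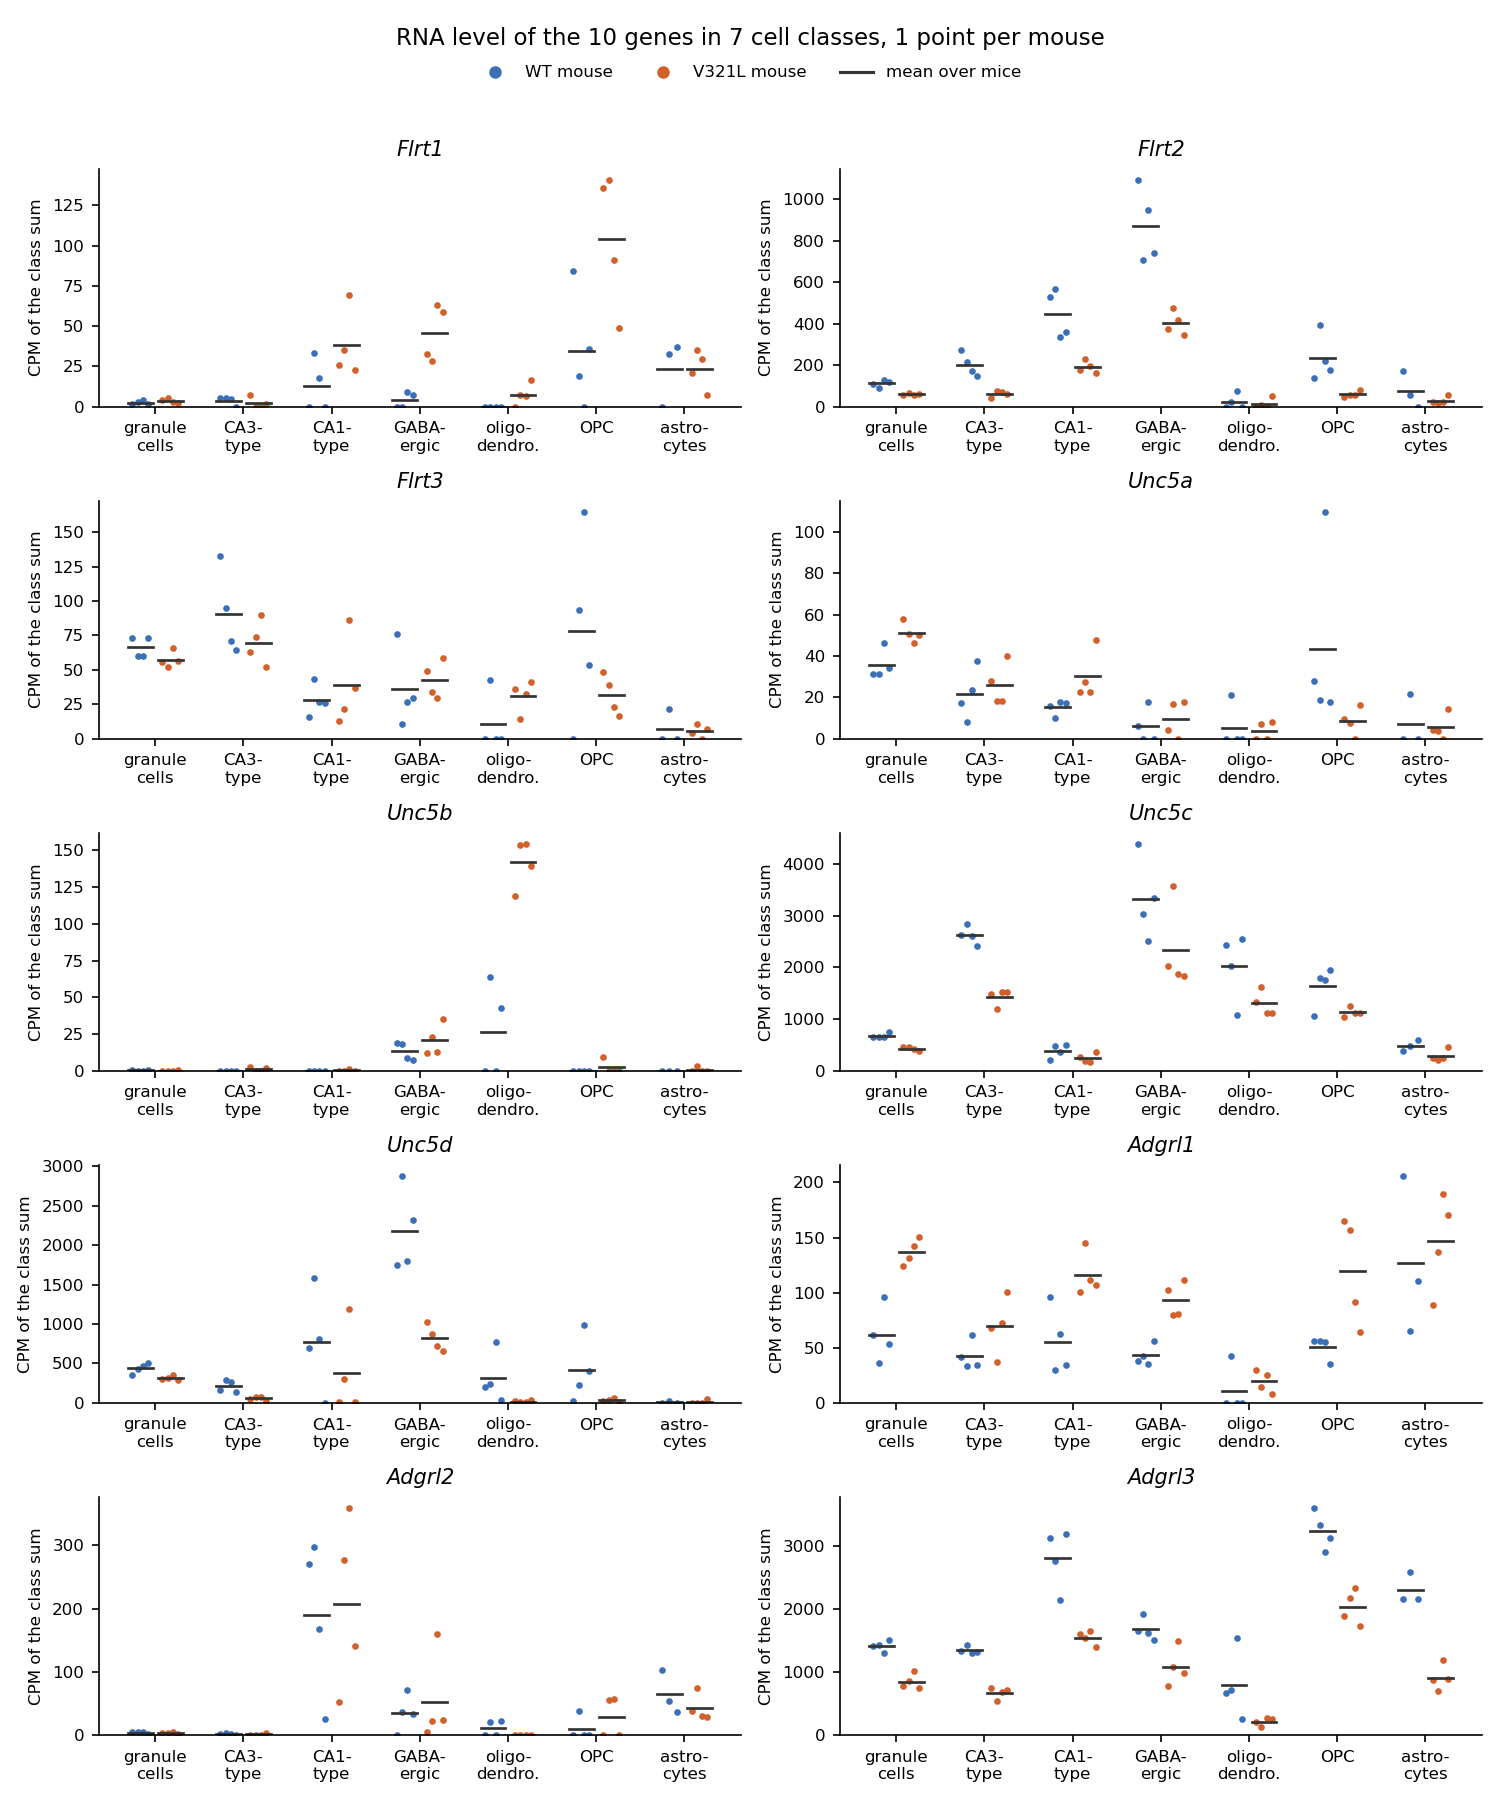
RNA level of each gene (CPM of the class sum, linear axes that differ between panels) in 7 cell classes, with 1 point per mouse, blue for WT and orange for V321L; bars are means over the 4 mice (3 WT mice in astrocytes). Among these 7 classes *Unc5b* stood out in oligodendrocytes, *Adgrl2* in CA1-type neurons, and *Flrt2* and *Unc5d* in GABAergic neurons. Immature neurons, microglia, Cajal-Retzius cells and vascular cells were not tested and are not plotted. CA3-type, CA1-type and GABAergic classes are clusters and the others are marker gates.

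The ligands were spread unevenly over the classes. *Flrt2*, whose product is both an adhesion molecule and a ligand of UNC5 receptors, was read in WT GCs at 109, 89.7, 131 and 120.3 CPM. In the GABAergic clusters of the same mice it reached 1093, 706, 946 and 740.1 CPM, and in the CA1-type clusters 527, 567, 337 and 359 CPM. Every WT mouse was thus lowest in GCs and highest in GABAergic neurons among these 3 classes. The gated excitatory neurons other than GCs were set by the joined CA3-type, CA1-type and mossy-type marker lists and lay mostly in CA3-type and CA1-type clusters. Within mice of both genotypes they differed from the GCs by 1.23 on the log2 scale (SE 0.134), oligodendrocytes by -2.75 (SE 0.406) and astrocytes by -1.23 (SE 0.269).

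*Flrt3*, a FLRT known from hippocampal excitatory synapses as a partner of latrophilins, was read in GCs and CA3-type neurons at overlapping levels. Its level in WT mice was 73.5, 60.2, 59.7 and 73.3 CPM in GCs and 133, 94.7, 71.2 and 64.6 CPM in CA3-type clusters. The CA1-type clusters, at 15.96, 43.4, 26.6 and 25.6 CPM, were below both in every WT mouse. Its log2 difference from GCs was -1.36 in oligodendrocytes (SE 0.329) and -3.27 in astrocytes (SE 0.408). No p is given for these because *Flrt3* was at 0 CPM in some of these sums and passed the filter on low counts through the GCs. In the other excitatory neurons (0.20, SE 0.152) and in oligodendrocyte precursors (OPCs; -0.72, SE 0.333) it did not pass the threshold of 0.05 (adjusted p = 0.348 and 0.0820, edgeR). *Flrt1* was at 1.51 to 4.10 CPM in WT GCs and 2.26 to 5.18 CPM in V321L GCs, and among the 7 classes plotted its mean over mice was highest in OPCs, at 84.0, 18.8, 0 and 35.6 CPM in WT and 136, 141, 91.3 and 48.5 CPM in V321L mice. Single mice departed from this order, as WT F2 held 33.4 CPM in CA1-type clusters and V321L M2 held 58.8 CPM in GABAergic clusters. Outside the plotted classes, the immature-neuron clusters of V321L mice held 128, 163, 151 and 68.8 CPM. Their Cajal-Retzius cells held 362, 122, 76.3 and 0 CPM.

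Among the UNC5 receptors, *Unc5c* was read at 652, 652, 652 and 752 CPM in WT GCs, against 2631, 2835, 2597 and 2402 CPM in CA3-type clusters. GABAergic clusters held 4389, 3034, 2516 and 3343 CPM, while CA1-type clusters held 207, 477, 355 and 495 CPM. CA3-type and CA1-type neurons thus lay on opposite sides of the GCs without overlap in WT mice. In the gated classes *Unc5c* exceeded the GC level in other excitatory neurons (1.3, SE 0.290, adjusted p = 0.0030, edgeR), though at 0.56 without a call in V321L mice alone (adjusted p = 0.345), in oligodendrocytes (1.20, SE 0.254, adjusted p = 3.0e-05) and in OPCs (0.98, SE 0.183, adjusted p = 7.6e-07), and it fell below it in astrocytes (-0.92, SE 0.174, adjusted p = 2.2e-06).

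Over the mice of both genotypes *Unc5d* was lower in the 3 glial classes than in GCs, though not in every mouse. OPCs held 28.0, 225, 988 and 410 CPM in WT and 19.4, 31.3, 68.5 and 16.2 CPM in V321L mice. Oligodendrocytes held 196, 234, 771 and 42.8 CPM in WT and 23.8, 7.15, 6.42 and 32.8 CPM in V321L mice. WT M1 was above its GCs in both classes. WT GCs held 360.3, 429.9, 466 and 509.6 CPM and the GABAergic clusters 1747, 2876, 1794 and 2324 CPM. Its log2 difference from GCs was -2.89 in oligodendrocytes (SE 0.320), -1.90 in OPCs (SE 0.239) and -5.15 in astrocytes (SE 0.312). No p is given for these because *Unc5d* passed the filter on low counts through the GCs. In some astrocyte sums it was at 0 CPM. The CA1-type clusters varied widely among mice of both genotypes, with 702, 1584, 807 and 0 CPM in WT and 16.2, 308, 1190 and 11.2 CPM in V321L mice.

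*Unc5a* was at 31.3, 31.5, 46.3 and 34.1 CPM in WT GCs, and at 0 to 17.8 CPM in the GABAergic clusters of all mice. Higher values stood in small sums of WT mice, such as 109.8 CPM in the OPCs of M1, on 2 UMIs. It was lower than in GCs in other excitatory neurons (-0.83, SE 0.204, adjusted p = 0.0056, edgeR). The difference was -3.46 in oligodendrocytes (SE 0.521), -3.12 in astrocytes (SE 0.455) and -1.83 in OPCs (SE 0.473). No p is given for these glial classes because *Unc5a* was at 0 CPM in some of their sums and passed the filter on low counts through the GCs. In WT mice alone the differences of OPCs (-0.54) and oligodendrocytes (-2.72) did not pass, nor in V321L mice alone that of other excitatory neurons (-0.70). *Unc5b*, the receptor best known from blood vessels, was nearly absent from GCs, at 0 to 0.805 CPM in all 8 mice, and was read in oligodendrocytes, at 0, 63.8, 0 and 42.8 CPM in WT and 119, 154, 154 and 139.5 CPM in V321L mice. In GABAergic clusters it was at 7.44 to 35.3 CPM over the 8 mice. Gated Cajal-Retzius cells, a small class that was not tested, held 335, 0, 0 and 0 CPM in WT and 0, 244, 382 and 220 CPM in V321L mice. The V321L values rested on 11 UMIs in all and the WT value on 1.

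The latrophilins had unlike patterns. *Adgrl2* was at 1.61 to 4.75 CPM in the GCs of all mice and at 0 to 3.51 CPM in CA3-type clusters. In the CA1-type clusters it was read at 271, 297, 169 and 25.6 CPM in WT and at 51.9, 276, 359 and 140 CPM in V321L mice, above every GC and CA3-type value. In astrocytes the WT values were 103, 54.1 and 36.9 CPM in F1, F2 and M2, and the difference from GCs was 3.6 (SE 0.357, 7 mice), given with no p because *Adgrl2* passed the filter on low counts there through the astrocytes.

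*Adgrl3* was widely expressed, at 1412, 1429, 1305 and 1503 CPM in WT GCs and 1339, 1427, 1304 and 1318 CPM in CA3-type clusters. CA1-type clusters (3128, 2762, 2146 and 3202 CPM) and OPCs (3611, 3340, 2910 and 3135 CPM) were above both in every WT mouse. The excess of OPCs over GCs was 0.88 on the log2 scale (SE 0.178, adjusted p = 6.3e-06, edgeR), and the difference of oligodendrocytes from GCs was -1.96 (SE 0.269, adjusted p = 5.6e-10). Without the filter on low counts the calls in OPCs were lost for *Adgrl3* (0.47, adjusted p = 0.102) and *Unc5c* (0.57, adjusted p = 0.0542, edgeR). *Adgrl1* was at 61.5, 35.8, 96 and 53.7 CPM in WT GCs. Oligodendrocytes differed from that by -2.77 (SE 0.344). No p is given there because *Adgrl1* was at 0 CPM in some WT oligodendrocyte sums and passed the filter on low counts through the GCs. More weakly, it was lower in other excitatory neurons (-0.39, SE 0.0978, adjusted p = 0.0064, edgeR). That call was lost in WT mice alone (-0.35), in V321L mice alone (-0.37) and with nuclei thinned to 1000 UMIs (-0.45). For *Adgrl1*, *Flrt3* and *Unc5a* the free RNA of WT libraries, measured in barcodes of at most 100 UMIs, held 161 to 306, 84.9 to 124 and 31.1 to 56.3 CPM. This was above the GC level of the same mouse in all 4 WT mice for *Adgrl1* and *Flrt3* and in 3 for *Unc5a*, and their levels in any WT class stand beside that. Free RNA was likewise above the GC level in all 4 WT mice for the genes that were lowest in GCs. It held 6.91 to 15.5 CPM of *Flrt1*, 5.39 to 20.4 CPM of *Adgrl2* and 1.73 to 5.93 CPM of *Unc5b*.

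Counted over the genes that passed the filter on low counts, other excitatory neurons differed from GCs in 3 of 6 members, where 37.2% of all tested genes did. Oligodendrocytes differed in 6 of 6 (46.2% of all genes), OPCs in 4 of 6 (33.7%) and astrocytes, with *Adgrl2* left out, in 4 of 6 (46.6%). A gene that is low in one class passes the filter through the other. These counts, which include differences given above with no p, are therefore a description. *Flrt1* and *Unc5b* passed the filter in none of these 4 comparisons, and *Adgrl2* only in the one with astrocytes. WT M1 had 11 astrocytes with 7443 UMIs in all, below the minimum set, and every astrocyte fit of RNA left it out and used 7 mice. The astrocyte fits of start sites below kept it and used 8 mice.

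Chromatin at the start sites was compared next, since it was not used to choose the genes. The measure is the ATAC count of the peaks within 1000 bases of the start sites, per 1000000 counts in peaks. *Unc5a* was open in GCs of all mice, at 56.2, 56.4, 51.4 and 56.5 in WT and 65.6, 39.3, 45.7 and 67.4 in V321L mice. In oligodendrocytes it was at 0, 0, 54.1 and 14.1 in WT and 4.80, 12.6, 9.61 and 8.04 in V321L mice, a log2 difference of -2.45 (SE 0.363), and in astrocytes the difference was -2.88 (SE 0.374). As for RNA, no p is given where a start site was less open in glia and at 0 in some glial sums. Such a start site passed the filter on low counts through the GCs. WT M1 overlapped the GCs, on 15 oligodendrocytes, and the other mice did not.

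*Unc5b* showed the reverse. Its start site held 4.53, 7.35, 5.83 and 6.82 in WT GCs and 11.9, 6.62, 6.50 and 12.4 in V321L GCs, against 49.4, 80.0, 61.8 and 84.8 in WT and 134, 96.9, 134 and 161 in V321L oligodendrocytes, without overlap. The difference was 3.25 for oligodendrocytes (SE 0.315, adjusted p = 1.0e-10, edgeR), 2.77 for astrocytes (SE 0.399, adjusted p = 1.1e-09) and 2.33 for OPCs (SE 0.481, adjusted p = 1.8e-04). In astrocytes and OPCs little RNA was read beside the open start site, as *Unc5b* was listed at 0 in 14 of the 16 class sums, and the largest of the others was 9.69 CPM. The WT sums were small, with 19 to 42 OPCs and 11 to 95 astrocytes per mouse. A 0 in such a sum does not show that the RNA was absent. *Unc5c* was more open in oligodendrocytes (0.75, SE 0.235, adjusted p = 0.0138), and lost the call without V321L F2 (0.64) or without V321L M1 (0.74). *Flrt3* was less open in oligodendrocytes (-1.25, SE 0.341) and astrocytes (-2.14, SE 0.403), in the same direction as its RNA. The astrocytes of WT M1, 11 nuclei, were kept in these fits and went against both directions. They held 129.1 for *Flrt3*, against 31.2 in its GCs, and 0 for *Unc5b*, against 5.83 in its GCs.

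**Figure D2:**
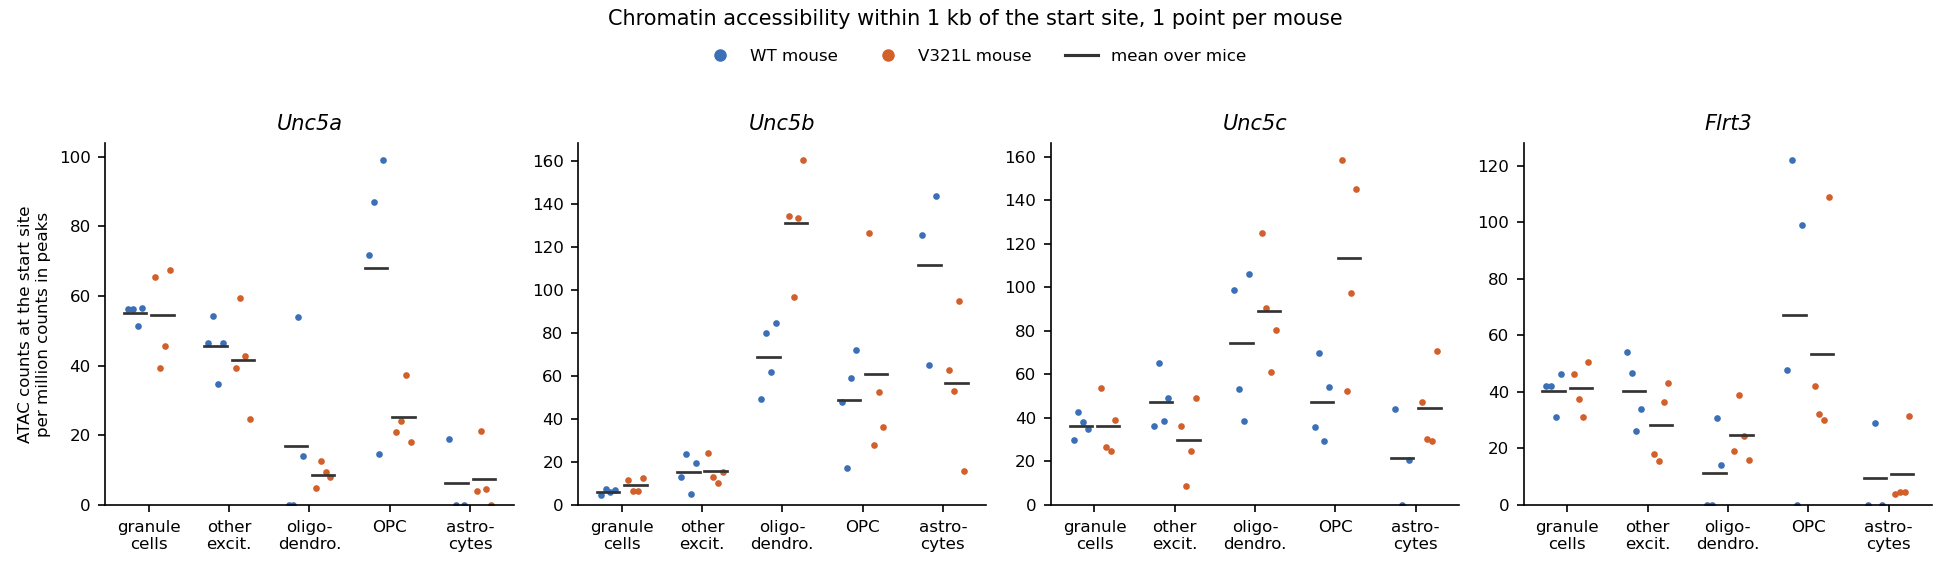
ATAC counts in peaks within 1 kb of the start site per 1000000 counts in peaks, for *Unc5a*, *Unc5b*, *Unc5c* and *Flrt3* in 5 gated classes, with 1 point per mouse (blue WT, orange V321L) and bars for the mean (3 WT mice in astrocytes). The GC points of *Unc5a* lie between 39.3 and 67.4 and those of *Unc5b* between 4.53 and 12.4. WT M1 is not drawn in astrocytes but was kept in the fits.

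The other start sites also differed between classes. *Flrt2* was more open in other excitatory neurons than in GCs (1.12, SE 0.177, adjusted p = 5.1e-06, edgeR), and so was *Unc5b* (1.09, SE 0.291, adjusted p = 0.0089), whose call was lost without WT F2 (0.96) or without WT M2 (0.98). *Adgrl1* was less open in oligodendrocytes (-1.47, SE 0.199), and *Unc5d* was less open in oligodendrocytes (-2.05, SE 0.593) and astrocytes (-2.34, SE 0.519). No p is given for these 3 differences, for the reason given above. Without V321L M1 the *Unc5d* difference in oligodendrocytes was -1.51. *Adgrl1* was also called less open in other excitatory neurons (-0.28, SE 0.0904, adjusted p = 0.0399) and OPCs (-0.66, SE 0.202, adjusted p = 0.0221). The former call was lost without WT F1, WT M1, WT M2, V321L M1 or V321L M2 (-0.29 to -0.23), and the latter without WT F1, WT F2 or WT M2 (-0.61 to -0.52), and both were lost with peaks within 500 bases (-0.21 and -0.51). In all, 3 of 8 members differed in other excitatory neurons (9.18% of all tested start sites), 6 of 8 in oligodendrocytes (25.4%), 2 of 8 in OPCs (8.17%) and 4 of 8 in astrocytes (28.1%). These counts include differences given with no p and are a description. The start sites of *Flrt1* and *Adgrl2* lacked a peak in 8 and 4 libraries and were not tested.

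In GCs the RNA of most members was lower in V321L than in WT mice. *Flrt2* was read at 55.1, 65.9, 56.5 and 62.6 CPM in V321L GCs, below all WT values given above, a log2 difference of -1.33 (SE 0.107). *Adgrl3* was at 778, 852, 1019 and 746 CPM against 1305 to 1503 in WT (-1.18, SE 0.136, adjusted p = 5.8e-06, edgeR). *Unc5c* was at 466, 451, 429 and 374 CPM against 652 to 752 (-1.10, SE 0.114, adjusted p = 2.5e-06), and *Unc5d* at 308, 313, 355 and 288 CPM against 360.3 to 509.6 (-0.92, SE 0.122, adjusted p = 1.8e-05). For these 4 genes no V321L mouse overlapped a WT mouse, and how many of all genes separate in this way was not counted.

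*Adgrl1* went the other way, at 124, 131, 142 and 150.1 CPM in V321L GCs against 35.8 to 96 CPM in WT (0.77, SE 0.180, adjusted p = 0.0018, edgeR). With the counts expected from free RNA subtracted, the difference was 2.04. *Flrt3* was lower (-0.67, SE 0.128, adjusted p = 4.0e-04), although its CPM overlapped, with 55.7, 52.3, 65.7 and 56.2 in V321L mice. *Unc5a* (0.10, SE 0.125, adjusted p = 0.470), *Flrt1* (0.25, SE 0.372, adjusted p = 0.570) and *Adgrl2* (-0.70, SE 0.360, adjusted p = 0.0973) did not pass, and *Unc5b* was too low to be tested. The normalization sets these values: scaled by library size in place of TMM (edgeR's trimmed mean of log ratios), the median difference of all genes moved by 0.446, from 0.11 to 0.55, *Flrt3* was at -0.22 and not called (adjusted p = 0.116) and *Unc5a* at 0.54 and called (adjusted p = 0.0049), while *Adgrl3*, *Unc5c* and *Unc5d* were still called lower and *Adgrl1* higher. *Flrt2* was at -0.90 on that scale.

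The share of members called was near that of all genes. Of 8 members tested 5 were called, where 70.2% of all tested genes were called, with 38.4% higher and 31.8% lower. Of the members 4 were called lower and 1 higher, and their median log2 difference was -0.68 beside a median of 0.11 over all genes tested.

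Gene length moved with the genotype difference. Tested genes with a RefSeq span under 20 kb had a median log2 difference of 1.16, those of 20 to 50 kb 0.09, those of 50 to 100 kb -0.38, those of 100 to 300 kb -0.73 and the 523 genes over 300 kb -1.09, of which 95.0% were called lower. *Unc5c*, *Unc5d* and *Adgrl3*, all over 300 kb, lay within the quartiles of their length class (-1.35 to -0.82), as did *Adgrl2* in its own (-1.05 to -0.37). *Flrt2* (-1.33) lay below the quartiles of genes of 50 to 100 kb (-0.76 to 0.05), and *Flrt3* (-0.67) below those of genes under 20 kb (0.40 to 2.01). *Adgrl1* (0.77) lay above the quartiles of genes of 20 to 50 kb (-0.34 to 0.60), and *Unc5a* and *Flrt1* above those of their class. The part of gene length in the members' differences was not tested.

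**Figure D3:**
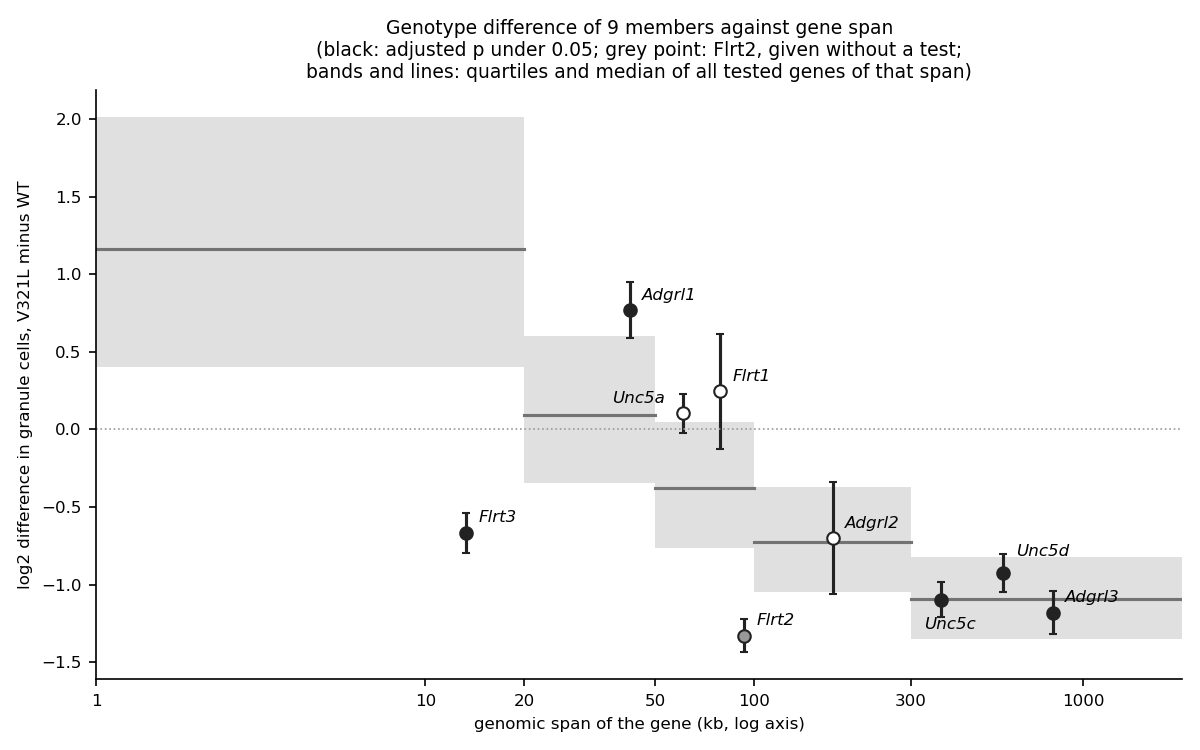
Log2 difference between V321L and WT GCs (points, with SE as bars) of 9 members against the genomic span of the gene in kb on a log axis; black points passed an adjusted p of 0.05, open points did not, and the grey point is *Flrt2*, given without a test. Grey bands and lines are the quartiles and medians of all tested genes of the same length class, from 1.16 under 20 kb to -1.09 over 300 kb.

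Markers of other cell types were also read in the gated GCs, and the summed levels of 8 of 14 marker lists did not overlap between genotypes. How often lists of other genes separate in this way was not counted. The 8 GC markers summed to 7493 to 8836 CPM in WT and 5464 to 6247 CPM in V321L GCs, and the lists of CGE-type GABAergic neurons (2018 to 2567 against 1351 to 1625), OPCs (635 to 835 against 493 to 618), microglia (98.0 to 226 against 62.5 to 90.7) and vascular cells (10.8 to 17.0 against 3.17 to 10.3) were also lower in V321L mice. The lists of mossy-type neurons (68.7 to 99.1 against 115.9 to 140.7), CA1-type neurons (10.5 to 22.8 against 24.4 to 40.7) and immature neurons (62.9 to 78.7 against 84.7 to 106.6) were higher. Of these, the mossy-type markers *Drd2* and *Csf2rb2* and the immature-neuron markers *Igfbpl1* and *Eomes* were at 0 in at least 1 mouse of each genotype. The mossy-type marker *Calb2* was at 0 in at least 1 WT mouse. The 9 astrocyte markers (127 to 166 against 115 to 159), the 8 oligodendrocyte markers (388 to 442 against 387 to 470) and the 6 GABAergic markers (37.7 to 51.5 against 50.9 to 86.5) overlapped, and the GABAergic markers *Dlx1* or *Dlx6os1* and *Dlx5* were at 0 in at least 1 mouse of a genotype. The part of other cell types in the members' differences was not tested.

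In the other classes the direction of each member was mostly that of GCs. In GABAergic clusters *Unc5d* fell to 1026, 868, 722 and 653 CPM in V321L mice, from 1747 to 2876 in WT (-1.51, SE 0.204, adjusted p = 2.0e-05, edgeR), and *Flrt2* was at 376, 476, 418 and 347 CPM against 706 to 1093 (-1.18, SE 0.187). *Adgrl3* was lower (-0.72, SE 0.194, adjusted p = 0.0076, edgeR). *Adgrl1* differed by 0.96 (SE 0.289), at 38.1, 43.0, 35.7 and 55.8 CPM in WT and 102, 79.4, 80.2 and 112 CPM in V321L mice. No p is given for *Adgrl1* because it passed the filter on low counts through the V321L mice. Its difference was not called without WT F1 (0.80), without V321L M2 (0.84) or without the filter (0.81). *Unc5c* passed narrowly (-0.61, SE 0.221, adjusted p = 0.0401), with 3579 CPM in V321L F2 beside 1834 to 2016 in the others, and lost the call when any of WT F1, F2 or M2 or V321L F1, M1 or M2 was left out (-0.65 to -0.49), with library sizes (-0.39) and with DESeq2 (-0.58). In all 4 of 4 members tested there were called, beside 35.8% of all genes. This count includes *Adgrl1*, given with no p, and is a description.

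In other excitatory neurons *Adgrl2* was at 8.65, 29.6, 20.2 and 3.01 CPM in WT and 21.0, 255, 339 and 39.5 CPM in V321L mice (2.88, SE 0.863). No p is given because it passed the filter on low counts through the V321L mice. The makeup of this class differed between mice: its nuclei in CA1-type clusters numbered 3, 39, 16 and 9 in WT and 39, 48, 84 and 43 in V321L mice, and those in CA3-type clusters 133, 327, 154 and 145 against 71, 14, 7 and 90. With this class taken from clusters the *Adgrl2* difference was 1.84, without a call. Within CA1-type clusters the *Adgrl2* values of the genotypes overlapped, as given above. *Unc5c*, high in CA3-type neurons, was lower in the gated class (-2.28, SE 0.408, adjusted p = 8.4e-04, edgeR), with 1065, 302, 311 and 1155 CPM in V321L mice. Within CA3-type clusters it was at 1476, 1199, 1532 and 1530 CPM in V321L against 2402 to 2835 CPM in WT mice, without overlap. Those clusters held only 18 nuclei in V321L F2 and 8 in V321L M1. The CA3-type name joins clusters of 962 and 119 nuclei, the latter with 113 from WT and 6 from V321L mice. The makeup of CA3-type sums thus also differed by genotype, and its part in the *Unc5c* difference was not tested. The share of CA1-type nuclei and the genotype cannot be told apart in the gated class.

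Of 7 members tested in other excitatory neurons, 5 were called beside 50.3% of all genes, and 3 with library sizes in place of TMM. Both counts include *Adgrl2*, given with no p. *Flrt2* was lower (-1.13, SE 0.254), as were *Flrt3* (-0.98, SE 0.354, adjusted p = 0.0364, edgeR) and *Adgrl3* (-0.64, SE 0.188, adjusted p = 0.0138), and *Adgrl1* was higher (0.84, SE 0.230, adjusted p = 0.0101). With library sizes *Flrt3* (-0.56) and *Adgrl3* (-0.23) were not called. The *Flrt3* call was also lost with sex as a term (-0.96) and without WT F1 (-0.85), WT F2 (-0.93), V321L F1 (-0.88), V321L F2 (-0.73) or V321L M2 (-0.87).

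In glia few members could be tested. *Unc5b* differed by 2.11 (SE 0.527) in oligodendrocytes, given with no p because it passed the filter through the V321L mice and no longer passed when any V321L mouse was left out. The WT zeros rest on small sums: 0 UMIs among 25501 in F1 allow up to 118 CPM and 0 among 12964 in M1 up to 231 CPM. *Adgrl3* was lower in oligodendrocytes (-1.57, SE 0.458, adjusted p = 0.0221, edgeR), at 203, 122, 270 and 254 CPM against 667, 723, 1543 and 257 CPM, and lost the call without V321L F1 (-1.54) or without V321L F2 (-1.27). *Unc5c* did not pass there (adjusted p = 0.207, edgeR), and 28.4% of all genes were called. In astrocytes of 7 mice *Adgrl3* fell (-1.19, SE 0.188, adjusted p = 1.1e-04), the only call among 3 members tested, beside 41.3% of all genes. In OPCs 0 of 2 members were called by edgeR, beside 14.4% of all genes; *Adgrl3* (-0.43, SE 0.145) had an unadjusted p of 0.0092 and an adjusted p of 0.0594 (edgeR), with 1890, 2184, 2339 and 1732 CPM in V321L mice. DESeq2 also called 0 of 2, whereas clusters, no filter on low counts and leaving out some single mice gave a call.

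Whether a genotype difference itself differed from that in GCs was tested by an interaction term. *Adgrl2* in other excitatory neurons differed by 3.63 (SE 0.633), where 1.16% of all genes were called. No p is given because in that class it passed the filter on low counts through the V321L mice. In GCs it was at only 1.61 to 4.75 CPM. The CA1-type share of the class differed between mice, as given above, and its part in this difference was not tested. *Unc5d* differed in GABAergic neurons by -0.86 (SE 0.184, adjusted p = 0.0069, edgeR), where 0.557% of all genes were called. In oligodendrocytes and OPCs no such term is given for *Unc5b* or *Unc5d*, which passed the filter on low counts in the genotype fit of only one of the classes or of neither.

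GCs with a *Sorcs3* UMI carried more of 4 members than the other GCs of the same mouse. *Sorcs3* encodes a sorting receptor, and 1144 GCs, 84 to 249 per mouse, had such a UMI. *Adgrl3* was at 2840, 3319, 2924 and 2782 CPM in Sorcs3+ and 1119, 1164, 1163 and 1326 CPM in Sorcs3- GCs of WT mice, and at 1181, 1440, 2146 and 1272 against 711, 761, 845 and 673 CPM in V321L mice (1.17, SE 0.0453, adjusted p = 2.4e-40, edgeR with mouse as a term). *Unc5d* was at 609.8, 765, 575 and 826 against 309, 383, 457 and 466 CPM in WT and at 463, 667, 868 and 484 against 282, 258, 275 and 261 CPM in V321L mice (1.04, SE 0.0611, adjusted p = 2.2e-27). Both were higher in Sorcs3+ GCs in 8 of 8 mice, and the highest Sorcs3- mouse stayed below the lowest Sorcs3+ mouse of its genotype.

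*Unc5c* rose less (0.53, SE 0.0460, adjusted p = 2.8e-17, edgeR), from 601, 610, 636 and 729 to 902, 952, 829 and 921 CPM in WT and from 439.5, 421, 406 and 358 to 626, 645, 577 and 492 CPM in V321L mice. *Flrt2* was at 156, 123, 124 and 185.5 CPM in Sorcs3+ against 99.4, 84.9, 131 and 111 CPM in Sorcs3- GCs of WT mice and at 67.8, 89.0, 108 and 84.6 against 53.0, 62.3, 48.5 and 59.6 CPM in V321L mice (0.61, SE 0.0938), lower in WT M1 only. *Flrt3* (-0.16, SE 0.118, adjusted p = 0.460), *Unc5a* (0.14, SE 0.127, adjusted p = 0.583) and *Adgrl1* (-0.08, SE 0.0932, adjusted p = 0.723) did not pass. In all 3 of 6 members tested were called, beside 13.5% of all genes, and without the filter on low counts *Flrt3* (-0.40) and *Adgrl1* (-0.34) were called lower as well.

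**Figure D4:**
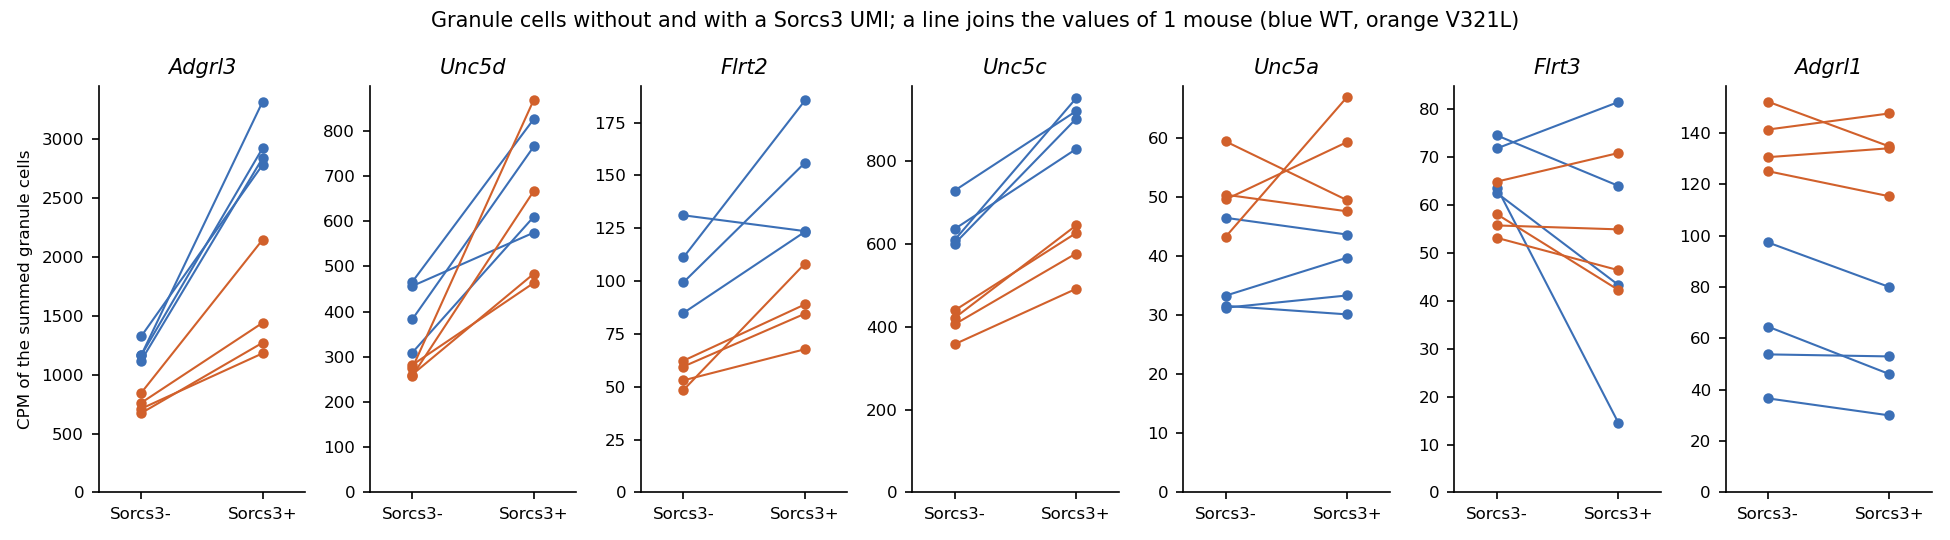
CPM of 7 members in GCs without (Sorcs3-) and with (Sorcs3+) a *Sorcs3* UMI; each line joins the sums of 1 mouse, blue for WT and orange for V321L. *Adgrl3*, *Unc5d* and *Unc5c* rose in all 8 mice and *Flrt2* in 7, while the lines of *Unc5a*, *Flrt3* and *Adgrl1* ran in both directions.

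Sorcs3+ nuclei were deeper in WT mice (median 1370 to 2975 UMIs against 1091.5 to 1918) and close in V321L mice (3639.5 to 4736 against 3173 to 4681). After each nucleus was thinned to 1000 UMIs the differences were 1.18 for *Adgrl3*, 1.06 for *Unc5d*, 0.58 for *Unc5c* and 0.57 for *Flrt2*. Genes over 300 kb, among them *Adgrl3*, *Unc5d* and *Unc5c*, had a median of 0.05, with 31.6% called higher and 24.0% lower. Genes under 20 kb had a median of -0.03, with 2.59% called higher and 2.42% lower. The part of gene length in the members' differences was not tested. The 7 mossy-type markers summed to 106 to 132 CPM in Sorcs3+ and 63.6 to 95.8 CPM in Sorcs3- GCs of WT mice. In V321L mice they summed to 174 to 235 and 104 to 135 CPM. Of these markers *Calb2*, *Drd2* and *Csf2rb2* were at 0 in at least 1 Sorcs3+ sum of each genotype, and *Nmb* and *Ociad2* in WT. The 6 GABAergic markers summed to 58.4 to 94.6 and 33.8 to 47.8 CPM in WT and overlapped in V321L mice (68.3 to 117 and 45.7 to 84.2 CPM). The GC markers were lower in Sorcs3+ GCs, at 6271 to 7537 against 7600 to 9018 CPM in WT and 4656 to 5474 against 5597 to 6402 CPM in V321L mice. Their part in the members' differences was not tested. The difference between Sorcs3+ and Sorcs3- GCs was not called to differ between genotypes for any of the 6 members tested, with the lowest adjusted p for *Unc5d* (0.44, SE 0.109, adjusted p = 0.0840).

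*Penk*, which encodes an opioid peptide precursor, was read in 339 GCs, 11 to 94 per mouse. *Unc5d* (0.55, SE 0.154, adjusted p = 0.0111, edgeR) and *Adgrl3* (0.48, SE 0.151, adjusted p = 0.0323) were higher in Penk+ GCs, and *Flrt2* differed by 0.55 (SE 0.174). Of 6 members tested 2 were called, beside 5.41% of all genes. *Adgrl3* was higher in Penk+ GCs in 8 of 8 mice and *Unc5d* in 7, the exception being WT M2 (404 against 510.5 CPM). With nuclei thinned to 1000 UMIs 0 of 6 were called by edgeR, 3 of them at an unadjusted p under 0.05, and with WT mice alone 0 of 6, with 2 at an unadjusted p under 0.05.

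Binding partners of the 10 genes were listed from known interactions. Their genomic spans were not examined, and in GCs 95.0% of all tested genes over 300 kb were called lower by genotype. The part of gene length in the partners' differences was not tested. All 4 teneurins, the latrophilin ligands, were called lower in V321L mice, as were 31.8% of all genes: *Tenm1* (-1.41, SE 0.117, adjusted p = 5.8e-07, edgeR), *Tenm2* (-1.25, SE 0.162, adjusted p = 1.5e-05), *Tenm3* (-0.92, SE 0.180, adjusted p = 4.7e-04) and *Tenm4* (-1.91, SE 0.335, adjusted p = 1.9e-04). *Tenm1* fell from 713 to 825 CPM in WT to 389.6 to 411 CPM in V321L mice, while *Tenm3* overlapped (139 to 161 against 85.0 to 151 CPM) and lost its call with no upper limits for nuclei (-0.49). In Sorcs3+ GCs, where 13.5% of all genes were called, *Tenm3* (0.92, SE 0.100, adjusted p = 8.9e-13), *Tenm4* (0.78, SE 0.117, adjusted p = 7.4e-08) and *Tenm2* (0.38, SE 0.0363, adjusted p = 2.9e-15) were higher and *Tenm1* lower (-0.31, SE 0.0496, adjusted p = 3.1e-07). Single mice departed from this, as *Tenm3* was lower in Sorcs3+ GCs of WT F1 (113.5 against 145.2 CPM). *Tenm4* was lower in those of V321L M2 (2.64 against 14.7 CPM).

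Of the 10 UNC5 ligands and co-receptors, 6 passed the filter on low counts, and 5 of them were called lower in V321L mice (4 with library sizes). The netrin receptor gene *Dcc* fell from 984 to 1593 CPM in WT to 516 to 676 CPM in V321L mice (-1.55, SE 0.192, adjusted p = 1.0e-05, edgeR), and *Neo1* (-1.03), *Dscam* (-1.18) and *Gpc3*, a glypican that binds UNC5 proteins (-1.25), were lower as well. *Ntn3*, a netrin, was at 0.409 to 1.81 CPM in WT and 11.4 to 15.2 CPM in V321L mice (3.13, SE 0.337). It is given with no p because it passed the filter through the V321L mice. In Sorcs3+ GCs, where *Unc5c* and *Unc5d* were higher, *Gpc3* (-1.74, SE 0.245, adjusted p = 9.7e-09), *Dscam* (-0.50, SE 0.0475, adjusted p = 2.7e-15), *Dcc* (-0.35, SE 0.0502, adjusted p = 2.2e-08) and *Neo1* (-0.25, SE 0.0758, adjusted p = 0.0126) were lower. *Neo1* was not called without WT F1 (-0.23) or in mice of 1 genotype alone (-0.28 and -0.21). *Gpc3* was higher in Sorcs3+ GCs of WT M1 (43.65 against 23.56 CPM).

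Among 6 other partners 3 were called, all lower in V321L GCs: *Robo1* (-1.39, SE 0.114, adjusted p = 5.1e-07, edgeR), *Fgfr2* (-1.11, SE 0.0937, adjusted p = 6.0e-07) and *Shank2*, a postsynaptic scaffold (-0.42, SE 0.115, adjusted p = 0.0052), which was at 0.02 and not called with library sizes, where 3 partners were instead called higher, and was not called without the filter (-0.30), thinned to 500 UMIs (-0.23) or with free RNA subtracted (-0.16). Of 4 effectors 2 could be tested, and *Maged1*, which binds UNC5 proteins, was higher (1.61, SE 0.227, adjusted p = 3.1e-05), at 25.2 to 59.1 CPM in WT and 118 to 224 CPM in V321L mice. The paralogue *Adgrl4*, an endothelial gene, was too low to be tested. These counts stand beside the same 70.2% of all genes.

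Accessibility at the members' start sites did not pass the test between genotypes in GCs. By edgeR 0 of 8 members were called at an adjusted p under 0.05, where 2 of 12694 start sites (0.0158%) were, and 1133 start sites had an unadjusted p under 0.05. *Unc5d* had the lowest p of the members (0.48, SE 0.165, adjusted p = 0.413), with 18.3, 19.5, 21.2 and 20.3 in WT and 40.9, 16.8, 26.8 and 39.0 in V321L mice, a direction opposite to its RNA. The genes with lower RNA were at -0.36 (SE 0.187, *Adgrl3*), -0.16 (SE 0.147, *Unc5c*), -0.06 (SE 0.116, *Flrt3*) and 0.08 (SE 0.159, *Flrt2*), and *Adgrl1*, whose RNA was higher, at -0.20 (SE 0.150).

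As a description of likeness over the mean levels of 7 classes in WT mice, the genes closest to *Flrt2* among 9972 genes were *Cfap69*, *A230057D06Rik* and *Pcca* (Pearson r 0.993, 0.991 and 0.990 of log2(CPM + 1)). Those closest to *Unc5c* were *Lrrc49*, *Pdss1* and *Gk5* (0.983, 0.981 and 0.980), and those closest to *Adgrl3* were *Snx16*, *Mir9-3hg* and *Spata5* (0.987, 0.983 and 0.979). The classes share the libraries and their depth, and 7 points leave many genes with values this high.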

How the data were processed

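RNA and ATAC counts of 8 libraries, 1 per mouse, were taken as deposited by the authors, who made the raw counts per gene and per peak with Cell Ranger on mm10 and called peaks in each library. Nuclei were kept within the limits of the study for UMIs, genes and mitochondrial share, with at least 500 ATAC counts, and doublet scores above the library mean + 2 SD were removed. A nucleus entered a class with at least 2 markers of its list and 2 times the UMIs of every other list. CA1-type, CA3-type and GABAergic levels came from clusters built on the most variable genes, from which the 10 members were not excluded. Counts were summed per mouse and class (at least 10 nuclei and 10000 UMIs) and tested with edgeR 4.0.16 in R 4.3.3 (quasi-likelihood, TMM, filterByExpr, Benjamini-Hochberg over all genes, threshold 0.05), with mouse as a term within mice; DESeq2 1.42.0 was an alternative. ATAC counts were those in peaks within 1000 bases of start sites, and their astrocyte fits kept WT M1. Differences are V321L minus WT or class minus GCs. P-values rest on the spread between mice as edgeR pools it over genes, and not on that of 1 gene alone. For 1 gene they can be smaller than its own spread between mice would give. Bounds for counts of 0 cover counting error only. Scripts were tested on simulated data. Named genes were the 10 members, the called partners (at most 5 per list) and the 3 most alike genes of 1 member per family. Members and lists were chosen with earlier results of these data known, and 1 listed partner is not reported here. GABAergic and astrocyte genotype fits were added after the data were seen.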

Additional observations from a re-analysis of the deposited data

Results flagged for a closer look

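In 74 groups of 4 mice examined, 3 held a sample far from the others, where chance alone gives about 1 in 20. *Unc5c* in WT GCs was at 752.27 CPM in M2 and 651.6 to 651.91 CPM in the others. *Unc5c* in V321L GABAergic clusters was at 3578.6 CPM in F2 and 1834.4 to 2015.5 CPM in the others. *Unc5c* in V321L CA3-type clusters was at 1199 CPM in F2, on 18 nuclei, and 1476.3 to 1532 CPM in the others.

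In 2 cases the genotype difference differed from that in GCs by an interaction term (edgeR, adjusted over all genes). The log2 difference between the effects was 3.633 for *Adgrl2* in other excitatory neurons and -0.8572 for *Unc5d* in GABAergic neurons. In other excitatory neurons *Adgrl2* passed the filter on low counts through the V321L mice. The CA1-type share of that class also differed between mice, and its part was not tested.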

How the results depend on the processing

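*Flrt2* RNA is not counted here. Of the single-gene results that were called, 1005 alternative values kept their direction and call, 61 lost the call and 1 changed sign; of those not called, 83 kept their direction and side, 6 were called and 5 changed sign. The sign changed for *Unc5a* in GCs in clusters (-0.0268) and thinned to 500 UMIs (-0.0405), *Adgrl2* in GCs without upper limits (0.87), *Unc5a* in Sorcs3+ GCs without the filter (-0.11) and thinned to 1000 UMIs (-0.11), and *Shank2* with library sizes (0.0235). Without the filter, members called rose from 3 to 6 in other excitatory neurons against GCs, from 3 to 6 in Sorcs3+ GCs and from 0 to 1 by genotype in OPCs, where clusters also gave 1. Library sizes lowered the calls by genotype in other excitatory neurons from 5 to 3. Penk+ calls fell from 2 to 0 with WT mice alone and to 0 when thinned to 1000 UMIs, and OPC start sites from 2 to 1 at 500 bases. Leaving out single mice gave 0 to 3 calls by genotype in oligodendrocytes (0 without V321L F1 or F2, 1 without V321L M1 or M2), 0 to 1 in OPCs (1 without WT F1 or M1 or any V321L mouse), 2 to 4 in GABAergic neurons (2 without WT F1 or V321L M2), 1 to 3 at start sites in other excitatory neurons (1 without WT M2) and 1 to 2 in OPCs (1 without WT F2 or M2).

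With a replicate block on F1, F2, M1 and M2, *Adgrl2* in GCs was at -0.78 and called (adjusted p = 0.0461, edgeR), as it was without WT M2 (-0.98) or V321L M1 (-0.91), and no other genotype call of a member changed. Deviations of same-labelled mice correlated at 0.0536 (F1), 0.261 (F2), -0.115 (M1) and 0.0308 (M2), so the labels were not taken as pairs. Shallow WT libraries and small glial sums limited what could be tested in *Flrt1*, *Unc5b* and *Adgrl2*.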
